A study of Mus musculus with 20 samples.

Results

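The proteasome subunit genes were taken by name: every gene whose symbol begins with Psma, Psmb, Psmc, Psmd or Psme followed by a number. This rule found 46 genes among the 18754 listed in all 4 groups of libraries. Of these, 44 encode subunits, assembly factors or activators of the proteasome. The other two carry a similar name without being subunits: *Psmc3ip*, a meiotic recombination factor, and *Psme3ip1*, a protein that binds the activator PSME3.

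The data were 20 bulk RNA-sequencing libraries of whole mouse retina, with 5 libraries in each of 4 groups. In the oxygen-induced retinopathy (OIR) experiment, C57BL/6J pups, male and female, were kept with their mothers in 75% oxygen from postnatal day 7 (P7) to P12, and retinas were collected at P17. Its groups were wild type (WT, *Atf6+/+*) and *Atf6-/-*, a constitutive knockout with an early stop codon that removes the ATF6 protein, a sensor of protein folding stress in the endoplasmic reticulum (ER). In the injection experiment, both eyes of WT mice at P30 received 1 µL of Ceapin-A7 at 10 µM, a small molecule that keeps ATF6 in the ER, or saline as the control (PBS), and retinas were taken 24 h later. The methods of the study give dimethyl sulfoxide (DMSO) at 0.01% in the Ceapin-A7 solution and 0.05% in the control, while the labels give both solutions the same range of solvent (0.05% to 0.1%, there named dimethyl sulfide), so an unequal share of solvent cannot be told apart from Ceapin-A7. The 2 experiments differ in age, oxygen and injection together, so these cannot be told apart when levels are set side by side. The labels do not say whether libraries came from separate animals, so p-values measure the spread between these libraries only.

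The proteasome degrades proteins that carry ubiquitin chains. Its core particle is a barrel of stacked rings, with outer rings of alpha subunits (Psma genes) that gate the entry pore and inner rings of beta subunits (Psmb genes), among them the proteases *Psmb5*, *Psmb6* and *Psmb7*. In cells exposed to interferon, *Psmb8*, *Psmb9* and *Psmb10* replace those proteases and form the immunoproteasome. The regulatory particle sits on the barrel: its base holds the ATPases (Psmc genes) that unfold substrates, and its lid removes ubiquitin. *Psme1* and *Psme2* (PA28 alpha and beta), *Psme3* (PA28 gamma) and *Psme4* (PA200) are alternative activators of the core.

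Promoter sequence, from 250 bases before to 50 after the gene start, was matched for 39 of the 46 genes in RefSeq (GRCm38.p6, an older build than the GRCm39 used for the values). *Psma8*, *Psmb1*, *Psmb2*, *Psmb7*, *Psmc3*, *Psmd3* and *Psmd7* had no match, so the pattern counts do not cover them. The letter patterns searched, on both strands, bear on how this gene family is known to be regulated. The core of the antioxidant response element, TGACNNNGC, which NRF1 and NRF2 can bind, was in 6 of 39 (15.4%), against 14.0% of 27025 genes with a promoter in the table. The interferon-type pattern GAAANNGAAA was in 4 of 39 (10.3%), against 3.99% of all, and these were *Psmb3*, *Psmd4*, *Psmd9* and *Psme1*. The ER stress response element, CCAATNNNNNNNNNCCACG, which ATF6 can bind, was in 0 of 39 and in 0.137% of all genes. The GC box, GGGCGG, was in 23 of 39 (59.0%), against 38.2% of all, and CCAAT was in 16 of 39 (41.0%), against 41.1%. CCAAT is also contained in the ER stress pattern. A match is a description of letters and not a bound site. Of the 6 genes with TGACNNNGC, 3 are shown, those of the proteases *Psmb5* and *Psmb6* and of *Psmd9*, an assembly factor of the base, with the pattern in capitals and the last base lying directly before the gene start. The *Psmb5* stretch is chr14:54617996-54618055 (minus strand), that of *Psmb6* chr11:70525327-70525356 (plus strand) and that of *Psmd9* chr5:123228130-123228189 (plus strand), all in GRCm38.p6 and read 5′ to 3′ along the gene.
Psmb5: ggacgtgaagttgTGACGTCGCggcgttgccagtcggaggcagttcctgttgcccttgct
Psmb6: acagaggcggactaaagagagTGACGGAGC
Psmd9: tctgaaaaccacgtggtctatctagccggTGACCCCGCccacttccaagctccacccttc

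Before the comparisons, the libraries were checked for signs that could touch these genes. Levels are given as FPKM, fragments scaled to transcript length and to the size of the library, which are per length and so can be compared between genes. *Atf6* itself was at 14.9 ± 0.618 FPKM (SD, n = 5) in WT OIR and 15.2 ± 1.51 in *Atf6-/-* OIR, so a mutation that stops translation is not checked by this gene level. Single values ran from 14.61 to 16.05 FPKM in WT OIR and from 13.57 to 16.83 in *Atf6-/-* OIR, and from 15.18 to 17.5 in PBS and 15.59 to 17.1 in Ceapin-A7. The 5 genes called between the OIR genotypes (limma, adjusted p below 0.05) each separated all 5 *Atf6-/-* from all 5 WT libraries. They were selected by these same labels, so their separation is not an independent check of the labels. Rod genes made up the highest marker sums in every library, as retina would have, while lens crystallin sums ran from 5.24 to 5920 FPKM over the 20 libraries. In the OIR set, each library's deviations from the gene means were correlated with the genes' GC content, positively in WT 1, 2, 3 and 5 and in *Atf6-/-* 5 (Spearman rho across genes 0.322 to 0.42) and negatively in WT 4 and *Atf6-/-* 1 to 4 (-0.155 to -0.549). WT 4 and *Atf6-/-* 5 therefore stood with the other genotype on this measure. Lens sums were 8.73 to 396 FPKM in WT OIR and 5.24 to 8.22 in *Atf6-/-* OIR, retinal pigment epithelium sums 11.4 to 82.3 and 42.7 to 267, and their part in the values below was not tested. In the P30 set, PBS 4 and 5 had the lowest rod sums, 14600 and 13700 FPKM, against 18500 to 20600 in the other 8 libraries. Values are printed in replicate order 1 to 5 throughout, and groups are given as mean ± SD over 5 libraries.

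Proteasome genes were among the well expressed genes of the retina. The median subunit above 0.1 FPKM was at 51.8 FPKM in WT OIR, 53.0 in *Atf6-/-* OIR, 56.5 in PBS and 60.9 in Ceapin-A7, above 90.5% to 91.9% of genes past the same limit, whose medians were 9.0 to 9.59. Within the alpha ring and among the ATPases of the base, levels of the genes differed by small factors. The 7 alpha-ring genes lay within 1.97-fold of each other in WT OIR and 1.90-fold in PBS, and the 6 ATPases of the base within 1.38-fold and 1.54-fold.

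The genes with the highest and lowest mean of each role class in WT OIR mark these ranges. In the alpha ring, *Psma3* was at 74.7, 62.5, 77.8, 90.5 and 70.8 FPKM in WT OIR, 77.1, 99.3, 89.9, 86.7 and 64.3 in *Atf6-/-* OIR, 97.9, 107, 105, 109 and 108 in PBS and 95.6, 107, 114, 107 and 103 in Ceapin-A7. *Psma5*, the lowest of the ring, was at 35.1, 34.95, 40.01, 45.4 and 36.1 FPKM in WT OIR, 42.1, 44.98, 41.8, 41.2 and 33.1 in *Atf6-/-* OIR, 60.1, 64.7, 60.4, 56.6 and 55.5 in PBS and 61.9, 61.3, 64.99, 62.9 and 64.8 in Ceapin-A7. Both were higher on average in the P30 groups than in the OIR groups. Among the structural beta subunits, *Psmb3* was at 88.7, 89.9, 105, 124 and 88.7 FPKM in WT OIR, 100.5, 129.7, 99.7, 104 and 89.8 in *Atf6-/-* OIR, 104, 110.5, 116, 107 and 95.6 in PBS and 114, 122, 118, 122 and 106 in Ceapin-A7. *Psmb1*, the lowest, was at 65.01, 66.1, 73.2, 89.9 and 71.1 FPKM in WT OIR, 77.8, 94.5, 81.3, 85.4 and 66.9 in *Atf6-/-* OIR, 68.1, 86.2, 78.1, 67.7 and 64.9 in PBS and 75.9, 81.7, 77.9, 74.5 and 75.9 in Ceapin-A7. The groups of each experiment overlapped for both. Of the ATPases, *Psmc4* was at 85.7, 75.8, 87.7, 104 and 79.9 FPKM in WT OIR, 91.9, 102, 90.3, 89.6 and 82 in *Atf6-/-* OIR, 63.4, 58.99, 67.95, 58.9 and 59 in PBS and 63.7, 70.9, 62.4, 71.4 and 64.1 in Ceapin-A7. *Psmc6*, the lowest, was at 57.5, 52.3, 66.03, 78.7 and 60.2 FPKM in WT OIR, 70.5, 75.1, 70.6, 75.8 and 57.2 in *Atf6-/-* OIR, 57.8, 70.1, 61.95, 65.01 and 68.97 in PBS and 66.4, 63.7, 64.9, 64.5 and 67.9 in Ceapin-A7. All P30 libraries were below all OIR libraries for *Psmc4* on the common scale. In the rest of the base, *Psmd4*, a ubiquitin receptor, was at 87.5, 82.2, 93.1, 103 and 87.2 FPKM in WT OIR, 96.5, 102, 91.1, 93.2 and 85.3 in *Atf6-/-* OIR, 78.5, 76.8, 81.5, 78.7 and 80.7 in PBS and 75.4, 85.01, 82.6, 86.7 and 79.2 in Ceapin-A7. *Psmd1*, a scaffold, was at 50.1, 46.1, 53, 54.5 and 50.3 FPKM in WT OIR, 50.3, 54.5, 54.5, 56.2 and 44.9 in *Atf6-/-* OIR, 38.9, 41.2, 40.4, 39.05 and 39.95 in PBS and 41.3, 42.3, 40.96, 40.3 and 41.7 in Ceapin-A7. *Psmd1* again lay lower in every P30 library. The lid was less even, with 3.85-fold between its highest and lowest gene in WT OIR. *Psmd8* led it and was at 106, 107, 109, 135 and 103 FPKM in WT OIR, 123, 120.3, 109, 114 and 107 in *Atf6-/-* OIR, 79.2, 78.1, 93.9, 77.9 and 80.1 in PBS and 77.1, 93.2, 81.8, 86.8 and 87.8 in Ceapin-A7. *Psmd13*, its lowest gene there, was at 28.5, 26.3, 28.8, 33.3 and 28.8 FPKM in WT OIR, 31.4, 36.3, 31.3, 34.6 and 25.6 in *Atf6-/-* OIR, 29.6, 32.9, 32.3, 31.7 and 28.3 in PBS and 31.7, 30.3, 32.5, 34.6 and 32.1 in Ceapin-A7. The assembly factors that join the base and then leave it were below the subunits. *Psmd5* was at 21.01, 21.6, 24.03, 29.9 and 22.2 FPKM in WT OIR, 26.4, 26.4, 25.9, 26.99 and 21.2 in *Atf6-/-* OIR, 25.2, 23.98, 27.8, 24.8 and 27.1 in PBS and 23.04, 22.3, 23.4, 25.5 and 26.8 in Ceapin-A7. *Psmd10* was at 6.61, 6.67, 7.19, 8.85 and 6.86 FPKM in WT OIR and 7.77, 7.69, 7.58, 7.87 and 6.34 in *Atf6-/-* OIR.

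**Figure D1:**
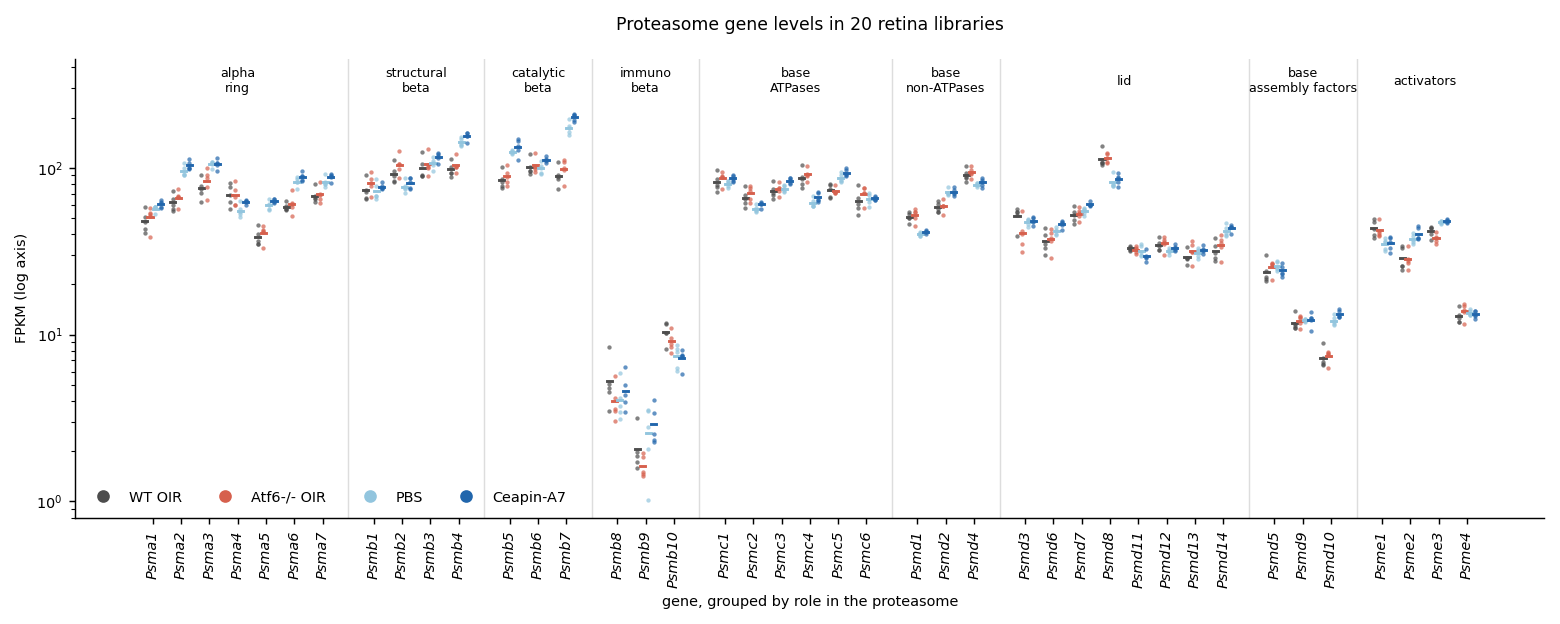
FPKM on a log axis for 41 proteasome genes in 20 retina libraries, in blocks by role; dots are libraries and short bars are means of 5. *Psmb7* at P30 lies highest (174 and 200 FPKM on average), and *Psmb8*, *Psmb9* and *Psmb10* lie far below the other core genes, with means of 1.64 to 10.4 FPKM.

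The rarest genes of the family were at the bottom of the range. *Psma8*, the alpha subunit of the testis proteasome, had group means of 0.116 to 0.218 FPKM. *Psmb11*, the catalytic subunit of the thymus, was between 0.03 and 0.16 FPKM in the OIR libraries and listed at 0 in all 10 P30 libraries, and with a mean below 0.1 FPKM it was not tested. *Psme2b*, a near-identical copy of *Psme2* whose reads the counting could have split, was at 0.08 to 0.91 FPKM over the 20 libraries.

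The constitutive proteases were far above their immunoproteasome counterparts in every library. *Psmb5*, the chymotrypsin-like protease, was at 75.98, 78.2, 85.7, 101 and 82.6 FPKM in WT OIR and 93.2, 104, 81.8, 88.3 and 77.8 in *Atf6-/-* OIR. Its replacement *Psmb8* was at 5.02, 4.8, 8.47, 4.5 and 3.49 FPKM in WT OIR and 3.59, 5.66, 3.46, 3.02 and 4.17 in *Atf6-/-* OIR. WT 3 had the highest *Psmb8* of the 20 libraries, and the ranges of the 2 genotypes overlapped for both genes. *Psmb6*, the caspase-like protease, was at 95.9, 91.3, 101, 121 and 94.97 FPKM in WT OIR and 101, 123, 98.1, 102 and 94.7 in *Atf6-/-* OIR, and its replacement *Psmb9* at 1.58, 1.97, 3.15, 1.71 and 1.88 and 1.46, 1.85, 1.51, 1.42 and 1.94. WT 3 was again the highest OIR library for *Psmb9*, and again the genotypes overlapped. *Psmb7*, the trypsin-like protease, was at 85.2, 74.4, 88.2, 108 and 89.9 FPKM in WT OIR and 97.3, 112, 100.3, 108 and 77.3 in *Atf6-/-* OIR. Its replacement *Psmb10* was at 10.3, 10.2, 11.6, 11.8 and 8.15 FPKM in WT OIR and 8.8, 10.97, 9.59, 7.77 and 8.42 in *Atf6-/-* OIR. Of the 3 immunoproteasome genes it was the most abundant in all 4 groups.

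In the P30 retinas the same order held. *Psmb5* was at 121, 126, 124, 123 and 127 FPKM in PBS and 112, 135, 144, 148 and 127 in Ceapin-A7, and *Psmb8* at 4.18, 3.73, 3.13, 5.86 and 3.44 and 3.42, 3.95, 6.35, 4.95 and 4.37. *Psmb6* was at 99.5, 109.8, 102, 93.3 and 91.8 FPKM in PBS and 107, 109.8, 112, 117 and 112 in Ceapin-A7, and *Psmb9* at 3.51, 2.06, 2.8, 3.5 and 1.02 and 3.4, 2.33, 2.27, 4.04 and 2.54. PBS 5 had the lowest *Psmb9* of all 20 libraries, and the treatment groups overlapped for these 4 genes. *Psmb7* was at 158, 197, 173, 165 and 179 FPKM in PBS and 187, 209, 206, 192 and 207 in Ceapin-A7, with 3 of 5 Ceapin-A7 libraries above the highest PBS library on the rescaled values. *Psmb10* was at 8.62, 8.16, 6.26, 7.89 and 6.01 FPKM in PBS and 5.79, 7.4, 7.59, 8.09 and 7.45 in Ceapin-A7. Summed, the immunoproteasome genes made up 6.08% ± 1.18 of the FPKM of the 6 protease genes in WT OIR, 4.82% ± 0.606 in *Atf6-/-* OIR, 3.42% ± 0.772 in PBS and 3.21% ± 0.277 in Ceapin-A7. In bulk tissue, fewer cells of a type and less RNA per cell cannot be told apart.

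**Figure D2:**
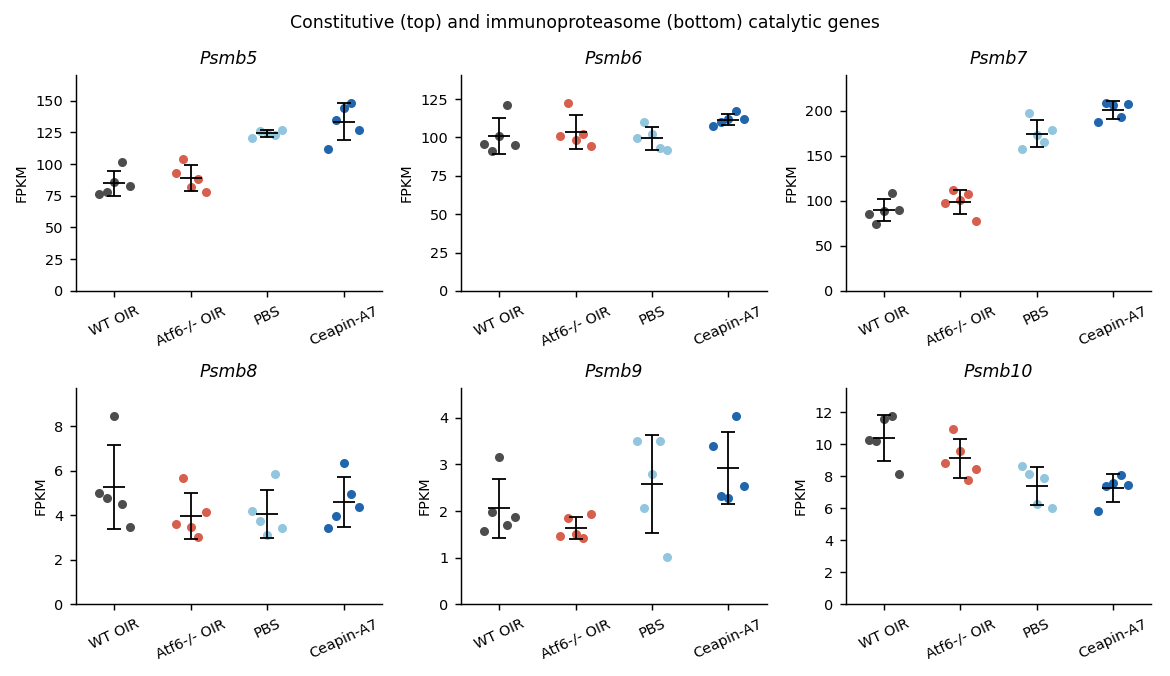
FPKM (linear axes from 0) of the constitutive proteases (top) and the immunoproteasome proteases (bottom) in the 4 groups; dots are libraries in replicate order, bars are mean ± SD of 5. *Psmb5* and *Psmb7* are higher in all 10 P30 than in all 10 OIR libraries, and the immunoproteasome genes overlap between all groups of an experiment.

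The first comparison, *Atf6-/-* against WT in OIR, asks whether loss of ATF6 changes these genes in the hypoxic retina. No proteasome gene was called: 0 of 45 tested passed an adjusted p below 0.05 (limma), against 0.0318% of 15704 genes, and the lowest adjusted p of a member was 0.39. With an unadjusted limit of 0.05 on the limma p, 1 of 45 was higher, against 6.94% of all genes, and 0 of 45 were lower, against 5.81%. The members' median log2 fold change was 0.063, against 0.00283 over all genes, and 35 of 45 had a value above 0, against 50.7% of all genes. No member had groups that did not overlap. Among all genes, 1.11% had every *Atf6-/-* library above every WT library, so a separation in that direction was rare. The share of all genes with the opposite separation is not given here. For 40 of 45 members the 95% interval lay within a 1.5-fold change in either direction.

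Log2 fold changes were above 0 for every gene of the constitutive core and of the base, and for 6 of 8 lid genes, the exceptions being *Psmd3*, described below, and *Psmd11*. All 7 alpha-ring genes (0.011 to 0.16 on the log2 scale), all 4 structural beta genes (0.098 to 0.19), all 3 constitutive proteases (0.058 to 0.17) all 6 ATPases (0.011 to 0.18) and all 3 other base genes (0.038 to 0.068) had small values, and none was called. The 1 member past the unadjusted limit was *Psmb2*, a structural beta subunit, at 83.5, 82.2, 95.1, 111 and 89.6 FPKM in WT OIR and 98.03, 125, 105, 105 and 87.3 in *Atf6-/-* OIR. The genotypes overlapped, with WT 4 above 4 of the 5 *Atf6-/-* libraries (log2 fold change of 0.19, 95% interval 0.001 to 0.38, limma adjusted p = 0.39). With FPKM as deposited, TPM, quantile normalization, a GC correction, no filter on low values or no mean trend, 0 members were higher and 1 lower at that limit. *Psmb7* had a log2 fold change of 0.17, 95% interval -0.045 to 0.38, limma adjusted p = 0.448, *Psmb5* a log2 fold change of 0.089, 95% interval -0.089 to 0.27, limma adjusted p = 0.603, and *Psmb6* a log2 fold change of 0.058, 95% interval -0.11 to 0.23, limma adjusted p = 0.722. *Psmc6*, an ATPase and the subunit gene with the lowest GC content (37.0%), had a log2 fold change of 0.17, 95% interval -0.030 to 0.38, limma adjusted p = 0.426. Across genes, the log2 fold changes of this comparison were correlated with GC content at a Spearman rho of -0.467. After a GC correction the log2 fold change was 0.019 for *Psmc6*, 0.183 for *Psmb5*, 0.133 for *Psmb6* and 0.128 for *Psmb7*.

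The immunoproteasome proteases pointed the other way, without passing the test. *Psmb8* had a log2 fold change of -0.35, 95% interval -0.81 to 0.12, limma adjusted p = 0.466. *Psmb9* had a log2 fold change of -0.27, 95% interval -0.64 to 0.11, limma adjusted p = 0.482, and *Psmb10* a log2 fold change of -0.17, 95% interval -0.40 to 0.058, limma adjusted p = 0.467. WT 3 weighed on the values of *Psmb8* and *Psmb9*: without it *Psmb8* was at -0.17 and *Psmb9* at -0.11. As a ratio within each library, which does not depend on scaling between libraries, *Psmb8* was 6.26% ± 2.28 of *Psmb5* in WT OIR and 4.46% ± 0.902 in *Atf6-/-* OIR (exact two-sided permutation p = 0.119, adjusted over 6 ratio tests 0.274). *Psmb9* was 2.06% ± 0.657 of *Psmb6* in WT OIR and 1.59% ± 0.265 in *Atf6-/-* OIR (exact p = 0.151, adjusted 0.274). *Psmb10* was 11.8% ± 1.87 of *Psmb7* in WT OIR and 9.30% ± 1.35 in *Atf6-/-* OIR (exact p = 0.0635, adjusted 0.274). All 3 ratios were lower on average in *Atf6-/-* OIR, and none of these differences passed the test. Without WT 3 the difference in the average log2 ratio went from -0.43 to -0.26 for *Psmb8* to *Psmb5* and from -0.32 to -0.17 for *Psmb9* to *Psmb6*. The smallest p that 5 against 5 libraries can give is 0.00794.

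Most antigen presentation and interferon response genes had values of the same sign, while the activator genes *Psme1* and *Psme2* had log2 fold changes of -0.025 and 0.001. Of 7 antigen presentation genes (the peptide transporter genes *Tap1* and *Tap2*, *Tapbp*, *B2m*, *H2-K1*, *H2-D1* and the regulator *Nlrc5*), 0 were called and all had log2 fold changes below 0, with a median of -0.25. Of 11 interferon response genes, 0 were called and 1 had a value above 0 (median -0.29), and 3 of 11 were lower at the unadjusted limit, against 5.81% of all genes: *Irf8* (-0.47), *Irf1* (-0.40) and *Irf9* (-0.39), all transcription factors of interferon signalling, with limma adjusted p of 0.358 to 0.362. The summed level of the 11 genes was 145 FPKM in WT 3 and 71.5 to 91.3 in the other WT OIR libraries, and 73.0 to 93.4 in *Atf6-/-* OIR. Microglia and macrophage markers, which mark the retina's immune cells, summed to 112 to 166 FPKM in WT OIR and 97.9 to 130 in *Atf6-/-* OIR, with 1 of 11 above 0, 0 called and 1 lower at the unadjusted limit. Endothelial markers summed to 90.2 to 144 FPKM in WT OIR and 87.1 to 123 in *Atf6-/-* OIR, with 1 of 7 above 0 (median -0.21, against -0.10 for the microglia markers), 0 called and 2 lower at the unadjusted limit. Other markers had medians above 0: rods 0.098 (8 of 8 above 0), cones 0.114 (5 of 5) and Muller glia 0.152 (4 of 6), with 0 called. None of the markers of these 5 cell types was at 0 in every library. The part of these cell types in the proteasome, immunoproteasome and interferon values was not tested.

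*Psmd3*, a structural subunit of the lid, had the lowest log2 fold change among the regulatory particle genes and lay at separate levels in the OIR libraries. It was at 54.2, 52.1, 54.2, 39.03 and 56.7 FPKM in WT OIR and 34.7, 41.7, 39.9, 31.4 and 54.9 in *Atf6-/-* OIR. WT 4 sat with *Atf6-/-* 1 to 4 at the lower level, and *Atf6-/-* 5 sat with the other WT libraries at the higher one (log2 fold change of -0.33, 95% interval -0.68 to 0.007, limma adjusted p = 0.396). These are the same sets of libraries as in the GC trend above. *Psmd3* and *Psmb5* had the highest GC content of the subunit genes (57.1% each, as rounded). *Psmb5* was highest among WT libraries in WT 4 (101 FPKM) and lowest among *Atf6-/-* libraries in *Atf6-/-* 5 (77.8). A single pair of genes cannot show what part GC content has, and nothing is drawn from it. In the P30 libraries *Psmd3* showed no such split, at 44.4 to 49.6 FPKM in PBS and 45.05 to 50.5 in Ceapin-A7. The part of the GC trend in the *Psmd3* values was not tested, and after a GC correction its log2 fold change was -0.24.

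Library by library, most members lay high in WT 4 and low in *Atf6-/-* 5, where *Psmd3* lay low and high. As a score, each library's median deviation of the 45 tested members from their means was 0.144 on the log2 scale in WT 4 and -0.157 to 0.001 in the other WT libraries, and -0.093 in *Atf6-/-* 5 and 0.003 to 0.165 in the other *Atf6-/-* libraries. In WT 4, 39 of 45 members were above their mean over the 10 libraries, and in *Atf6-/-* 5 only 7 of 45. With WT 4 and *Atf6-/-* 5 both left out, a choice made after seeing the data, 15 of 45 members were called, 13 of them higher, and with them 24.9% of all genes tested. The members' median log2 fold change was then 0.13. In the libraries kept, the GC trend was positive in every WT and negative in every *Atf6-/-* library. Genotype and GC trend therefore cannot be told apart in that fit. With a GC correction of all 10 libraries, 0 members were called and the median was 0.025, with 29 of 44 above 0.

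**Figure D3:**
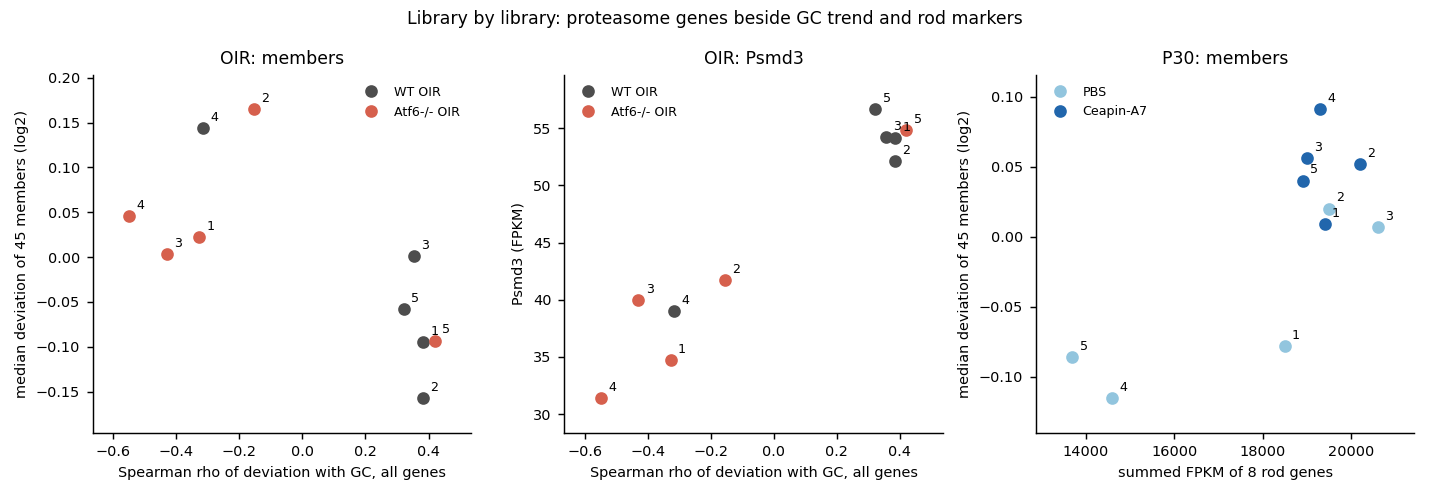
Library by library: the members' score (median log2 deviation) and the *Psmd3* level against the Spearman correlation of each OIR library's deviations with GC content (left, middle), and the score against the summed FPKM of 8 rod genes at P30 (right); numbers are replicates. WT 4 lies among *Atf6-/-* 1 to 4 and *Atf6-/-* 5 among the other WT libraries, and PBS 4 and 5 have the lowest rod sums and the lowest scores.

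The activators of the core showed no called change with genotype, and their log2 fold changes ran from -0.12 to 0.12. *Psme1* was at 39.5, 37.98, 49.5, 47.6 and 42.8 FPKM in WT OIR and 40.5, 49.5, 39.8, 41.9 and 39.1 in *Atf6-/-* OIR, and its partner *Psme2* at 24.5, 25.9, 33.2, 33.98 and 25.8 and 27.5, 33.9, 28.6, 26.8 and 24.3. For both the genotypes overlapped. *Psme3*, the activator of the nucleus, was at 43.2, 43.6, 43.9, 37.01 and 40.3 FPKM in WT OIR and 37.8, 38.4, 35, 36.5 and 40.96 in *Atf6-/-* OIR (log2 fold change of -0.12, 95% interval -0.29 to 0.043, limma adjusted p = 0.471). *Psme4* was at 11.8, 11.9, 13.1, 14.8 and 12.6 FPKM in WT OIR and 14.04, 13.6, 14.7, 15.2 and 11.5 in *Atf6-/-* OIR. For *Psme3* the lowest WT library was WT 4 and the highest *Atf6-/-* library was *Atf6-/-* 5, and for *Psme4* the reverse held.

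The second comparison, Ceapin-A7 against PBS, asks whether these genes differ 24 h after a Ceapin-A7 injection, in P30 retinas that had not been through OIR. Again no proteasome gene was called: 0 of 45 passed an adjusted p below 0.05 (limma), as did 0 of 15408 genes (0.0%), and the lowest adjusted p of a member was 0.472. Below the same unadjusted limit of 0.05, 10 of 45 members were higher, against 5.04% of all genes, and 0 were lower, against 5.31%. The members' median log2 fold change was 0.095, against 0.000891 over all genes, and 41 of 45 were above 0, against 50.3%. In 2 of 45 members all 5 Ceapin-A7 libraries were above all 5 PBS libraries, against 0.785% of all genes. The members were measured in the same libraries, so their counts are not independent observations. For 42 of 45 members the 95% interval lay within a 1.5-fold change in either direction.

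The 10 genes came from the core, the base ATPases, the lid and the base assembly factors. The other base genes, the immunoproteasome proteases and the activators gave 0. The pair whose groups did not overlap belonged to the regulatory particle: *Psmc3*, an ATPase of the base, was at 71.5, 78.6, 77.5, 72.9 and 75.03 FPKM in PBS and 79.98, 86.9, 84.6, 86.5 and 80.5 in Ceapin-A7 (log2 fold change of 0.16, 95% interval 0.062 to 0.25, limma adjusted p = 0.472), and *Psmd7*, a lid subunit, at 51.3, 56.1, 56.6, 53.4 and 57.3 and 60.02, 59.2, 59.9, 63 and 59.7 (log2 fold change of 0.14, 95% interval 0.051 to 0.22, limma adjusted p = 0.472). The lid subunit *Psmd6* was at 39.3, 44.3, 42.5, 39.95 and 41.9 FPKM in PBS and 42.5, 46.7, 47.8, 47.4 and 45.1 in Ceapin-A7 (log2 fold change of 0.14, 95% interval 0.039 to 0.25, limma adjusted p = 0.472). The groups overlapped for *Psmd6* and for the other 7 of the 10 genes. Of the core, *Psma4* of the alpha ring was at 50.3, 63.1, 56.4, 52.98 and 53.96 FPKM in PBS and 60.2, 61.9, 64.3, 62.9 and 63 in Ceapin-A7 (log2 fold change of 0.18, 95% interval 0.049 to 0.31, limma adjusted p = 0.472), with PBS 2 as high as the Ceapin-A7 libraries. *Psmb4*, a structural beta subunit, was at 138, 148, 152, 136 and 137 FPKM in PBS and 141, 155, 162, 162 and 154 in Ceapin-A7 (log2 fold change of 0.12, 95% interval 0.006 to 0.24, limma adjusted p = 0.474). PBS 2 and 3 were the highest PBS libraries for *Psmb4*.

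Among the proteases, *Psmb7*, already the highest member in PBS, had the largest value of the 10 genes, a log2 fold change of 0.20, 95% interval 0.064 to 0.34, limma adjusted p = 0.472. *Psmb6* had a log2 fold change of 0.17, 95% interval 0.047 to 0.30, limma adjusted p = 0.472, and *Psmb5* did not pass the unadjusted limit (log2 fold change of 0.095, 95% interval -0.049 to 0.24, limma adjusted p = 0.592). The remaining genes of the 10 were 2 ATPases and an assembly factor. *Psmc2* was at 54.3, 55.9, 60.6, 54.9 and 57.1 FPKM in PBS and 56.3, 62.5, 60.3, 61.6 and 60.99 in Ceapin-A7 (log2 fold change of 0.094, 95% interval 0.001 to 0.19, limma adjusted p = 0.48), and *Psmc5* at 83.1, 84.4, 91.04, 82.6 and 94.2 and 90.1, 89.7, 91.2, 96.6 and 99.3 (log2 fold change of 0.10, 95% interval 0.001 to 0.20, limma adjusted p = 0.481). *Psmd10*, the assembly factor gankyrin, was at 12.5, 13.2, 11.9, 11.6 and 11.3 FPKM in PBS and 12.7, 12.8, 14.2, 13.8 and 12.99 in Ceapin-A7 (log2 fold change of 0.14, 95% interval 0.009 to 0.27, limma adjusted p = 0.472). The member with the lowest value was the lid subunit *Psmd11*, at 29.6, 29.9, 31.1, 34.8 and 33.9 FPKM in PBS and 28.8, 27.2, 29.4, 29.7 and 32.5 in Ceapin-A7 (log2 fold change of -0.11, 95% interval -0.22 to 0.005, limma adjusted p = 0.486). For *Psmd11*, 4 of 5 Ceapin-A7 libraries were below the lowest PBS library on the rescaled values.

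**Figure D4:**
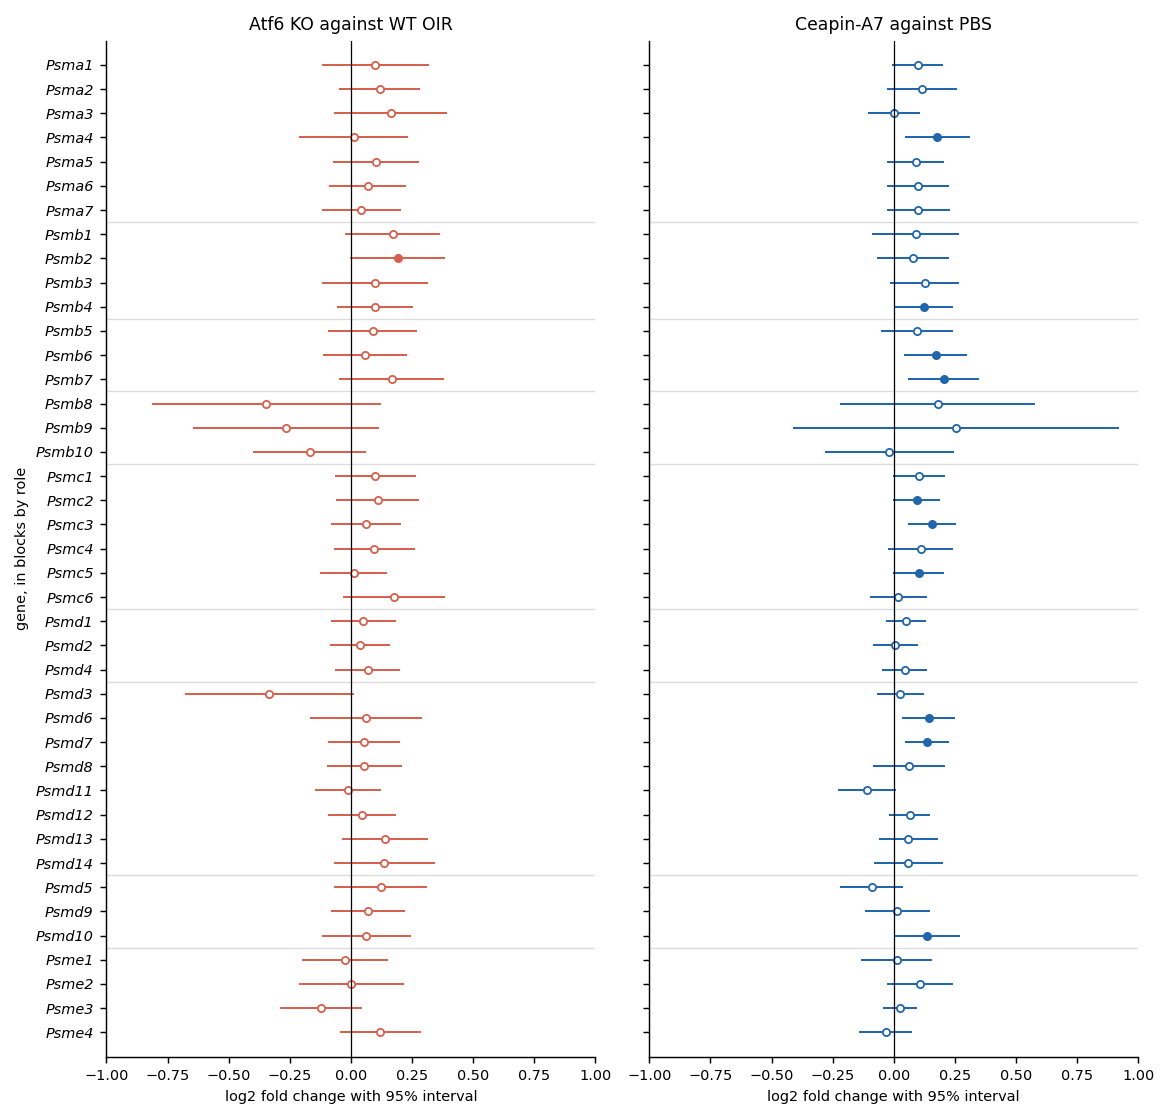
Log2 fold changes of 41 proteasome genes with 95% intervals from limma, *Atf6-/-* against WT in OIR (left) and Ceapin-A7 against PBS (right), in blocks by role; filled points have an unadjusted p of 0.05 or less. The left panel has 1 filled point and the right 10, all above 0, and no gene passes after adjustment over all genes.

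The count rested in part on PBS 4 and 5. The members' score was -0.115 in PBS 4, -0.086 in PBS 5 and -0.078 in PBS 1, against 0.007 and 0.02 in PBS 3 and 2 and 0.009 to 0.091 in the Ceapin-A7 libraries. PBS 4 and 5 are also the libraries with the lowest rod sums, and all 8 rod markers and all 5 cone markers had log2 fold changes above 0 in this comparison (medians 0.17 and 0.23), 1 and 3 of them past the unadjusted limit and none called. Also above 0 were 4 of 6 Muller glia markers (median 0.215), 7 of 11 microglia and macrophage markers (0.157) and 8 of 8 lens markers (0.979). Above 0 were only 2 of 7 endothelial markers (median -0.115) and 1 of 6 retinal pigment epithelium markers (-0.763). Without PBS 4 and 5, a choice made after seeing the data, 3 of 45 members (6.67%) had an unadjusted p of 0.05 or less, against 5.0% of all genes, and the members' median was 0.042. Without PBS 4 alone 6 of 45 (13.3%) did, against 6.21%, without Ceapin-A7 replicate 4 also 6, against 8.52%, and without PBS 2 16 of 45 (35.6%), against 16.4%. In a fit of all 20 libraries the members' share, 8.89%, was near that of all genes, 8.69%. The part of the shares of photoreceptor RNA and of RNA from other cell types in the members' values was not tested.

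The immunoproteasome and the activators gave no clear difference between Ceapin-A7 and PBS. *Psmb8* had a log2 fold change of 0.18, 95% interval -0.22 to 0.57, limma adjusted p = 0.715, and *Psmb9* a log2 fold change of 0.26, 95% interval -0.41 to 0.92, limma adjusted p = 0.757. Without PBS 5 the *Psmb9* value turned to -0.036, and without PBS 4 it was 0.385. *Psmb8* ran from 0.058 without Ceapin-A7 replicate 3 to 0.311 without PBS 4. The summed level of the 11 interferon response genes was 146 FPKM in PBS 4 and 64.5 to 98.5 in the other PBS libraries. In Ceapin-A7 this sum was 69.7 to 98.0 FPKM. As ratios, *Psmb8* was 3.28% ± 0.904 of *Psmb5* in PBS and 3.43% ± 0.577 in Ceapin-A7 (exact permutation p = 0.659, adjusted 0.79). *Psmb9* was 2.60% ± 1.11 of *Psmb6* in PBS and 2.61% ± 0.655 in Ceapin-A7 (exact p = 0.825, adjusted 0.825). *Psmb10* was 4.28% ± 0.862 of *Psmb7* in PBS and 3.62% ± 0.398 in Ceapin-A7 (exact p = 0.183, adjusted 0.274). The average log2 ratios differed by 0.084, 0.084 and -0.22. Among the activators, *Psme1* was at 34.9 ± 2.56 FPKM in PBS and 35.2 ± 3.12 in Ceapin-A7, *Psme2* at 37.4 ± 2.35 and 40.3 ± 3.58, *Psme3* at 47.2 ± 0.98 and 48 ± 1.12, and *Psme4* at 13.6 ± 0.55 and 13.2 ± 0.59. Ranges overlapped for all 4.

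The 2 comparisons were also tested against each other, in a limma fit of all 20 libraries in which the knockout effect and the Ceapin-A7 effect could differ. Of the 45 members, 0 had a called difference, against 0.032% of 15628 genes, and 1 had an unadjusted p of 0.05 or less, against 9.19%. That gene was *Psmd3*, whose knockout effect was lower than its Ceapin-A7 effect by 0.36 on the log2 scale (95% interval of the difference -0.71 to -0.006, limma adjusted p = 0.536). *Psmb8* and *Psmb9*, below 0 in the knockout comparison and above 0 in the Ceapin-A7 comparison, had differences of -0.52 (limma adjusted p = 0.592) and -0.52 (limma adjusted p = 0.674), so a difference between the 2 effects was not shown.

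Other genes around the proteasome were read from 7 lists of 45 genes in all: 5 lists for its assembly, bound proteins, regulation, ubiquitin supply and shuttles, and the antigen presentation and interferon response lists. In the knockout comparison 0 of 45 were called, 1 was higher and 3 were lower at the unadjusted limit, against 6.94% and 5.81% of all genes, the 3 being the Irf genes above. In the Ceapin-A7 comparison 0 were called, 4 were higher and 0 lower, against 5.04% and 5.31%. Of the 6 genes for the core assembly chaperones and the inhibitor *Psmf1*, all were above 0 with Ceapin-A7 (median 0.15) and 5 of 6 in the knockout (median 0.13). *Psmg1*, an assembly chaperone of the alpha ring, was at 15.5 ± 1.56 FPKM in PBS and 18 ± 1.19 in Ceapin-A7 (log2 fold change of 0.22 ± 0.075 SE, limma adjusted p = 0.472), and *Psmg3* at 18.7 ± 1.24 and 20.9 ± 0.806 (0.16 ± 0.052 SE, limma adjusted p = 0.472). *Sem1*, a small lid subunit named outside the Psm series, was at 84.3 ± 5.84 FPKM in PBS and 96.6 ± 10.8 in Ceapin-A7 (0.19 ± 0.078 SE, limma adjusted p = 0.472). *Psmf1*, an inhibitor of the proteasome, was at 14.2 ± 0.57 FPKM in WT OIR and 15.8 ± 1.08 in *Atf6-/-* OIR (0.17 ± 0.061 SE, limma adjusted p = 0.362).

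The known regulators of proteasome genes gave no call: of *Nfe2l1* and *Nfe2l2*, which encode the transcription factors NRF1 and NRF2, and *Ddi2* and *Ngly1*, whose products process NRF1, 2 of 4 were above 0 in each comparison, with medians of -0.021 and -0.011. The 5 genes for ubiquitin and its activating enzyme had medians of 0.077 and 0.047, the 6 further proteasome-bound proteins 0.088 and 0.0037, and the 6 shuttle and unfoldase genes -0.0027 and -0.014, in the knockout and Ceapin-A7 comparisons respectively. With Ceapin-A7, the antigen presentation genes had a median of -0.058 and the interferon genes of -0.16, with *Ifit3*, an interferon-induced gene, higher at the unadjusted limit (0.41, limma adjusted p = 0.475).

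Levels in the control retinas of the 2 experiments can be set side by side. No test was made between them, as they differ in age, oxygen and injection and their tables were produced separately. After all 20 libraries were put on one scale, all 5 PBS libraries were above all 5 WT OIR libraries for 13 of 45 members (28.9%), against 21.5% of all genes, and below for 4 of 45 (8.89%), against 19.8%. Taking all 10 P30 and all 10 OIR libraries, 11 of 45 members were higher at P30 (24.4%), against 14.8% of all genes, and 3 of 45 lower (6.67%), against 13.8%.

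The higher members were mostly core genes. *Psmb7* had the largest difference, 89.2 ± 12.3 FPKM in WT OIR and 174 ± 15 in PBS, a 1.98-fold higher level at P30. The other core genes with no overlap over the 20 libraries were *Psmb5* (1.49-fold), *Psmb4* (1.47-fold), *Psma2* and *Psma5* (1.57-fold each) and *Psma6* (1.43-fold). *Psmb6*, the remaining protease, was at 101 ± 11.9 FPKM in WT OIR and 99.4 ± 7.29 in PBS. Proteases that are built into the same ring thus had unequal transcript levels at P30 and near equal ones at P17, with a highest to lowest ratio of 1.75 in PBS and 1.19 in WT OIR. *Psmd10* was higher at P30 by 1.69-fold, *Psme2* by 1.33-fold, *Psmd2*, a scaffold of the base, by 1.25-fold and *Psmc5* by 1.21-fold. *Psme3* was at 41.6 ± 2.94 FPKM in WT OIR and 47.2 ± 0.98 in PBS.

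The lower members were regulatory particle genes. *Psmc4*, an ATPase, was at 86.6 ± 10.9 FPKM in WT OIR and 61.6 ± 4.02 in PBS (1.38-fold higher at P17), the lid subunit *Psmd8* at 112 ± 13.2 and 81.8 ± 6.82 (1.35-fold) and *Psmd1*, the largest subunit of the base, at 50.8 ± 3.23 and 39.9 ± 0.96 (1.26-fold). *Psmb10* had a larger difference, 10.4 ± 1.44 FPKM in WT OIR and 7.39 ± 1.18 in PBS (1.39-fold), but its groups overlapped. With *Psmb7* higher and *Psmb10* lower at P30, *Psmb10* was 11.8% of *Psmb7* in WT OIR and 4.28% in PBS. Microglia and macrophage marker sums were 112 to 166 FPKM in WT OIR and 45.2 to 63.5 in PBS, and their part in the *Psmb10* difference was not tested.

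**Figure D5:**
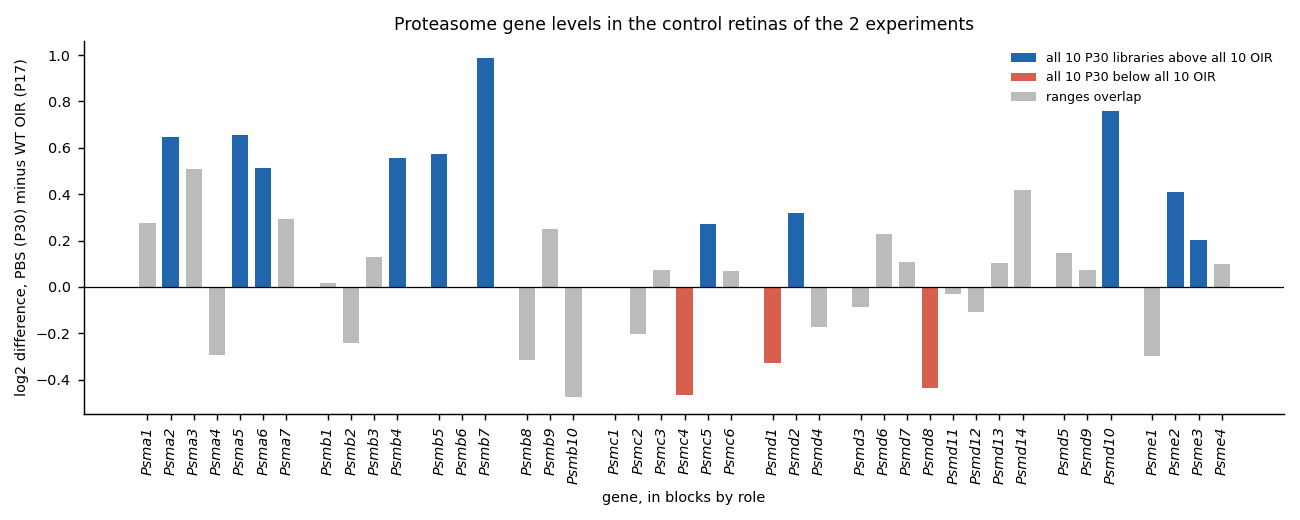
Log2 difference in level between PBS retinas at P30 and WT OIR retinas at P17 for 41 proteasome genes, in blocks by role, after scaling of all 20 libraries together; blue bars mark genes with all 10 P30 libraries above all 10 OIR libraries and red bars the reverse. *Psmb7* has the largest difference (0.99) and *Psmc4*, *Psmd1* and *Psmd8* are the 3 genes on the red side.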

How the data were processed

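Per the labels and the methods of the study, stranded mRNA libraries were sequenced as 100-base paired reads, aligned to GRCm39 with HISAT2 2.0.4 and quantified with RSEM 1.2.18, and the submitters' processing notes also name DESeq2 1.4.5. The authors deposited gene FPKM values to 2 decimals, in a table per group, and no read counts were used here, so the depth per gene is unknown and no counting interval is given. FPKM sums were 410599 to 456250 per library. No column of another series was present (0), and no 2 libraries held identical values.

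For each comparison, the 10 libraries' FPKM values were divided by median-of-ratios factors and put on a log2(FPKM + 0.1) scale, which understates the fold changes of low genes. Genes with a mean FPKM above 0.1 were tested with limma 3.58.1 (R 4.3.3) with a mean trend, p-values were adjusted by Benjamini-Hochberg over all genes tested, and a call was an adjusted p below 0.05. Intervals are 95% intervals of these fits. The difference between comparisons was an interaction in a fit of 20 libraries. Ratios of paired subunits were tested by exact permutation of 252 arrangements (scipy 1.17.1). The fits were tested on simulated data. GC content came from GENCODE vM21 transcripts (GRCm38) and was found for 45 of the 46 members and 97% of genes.

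The members, role classes and gene lists were chosen with earlier results of these data known. Values per library are given for the paired proteases, the activators, the highest and lowest gene of each role class in WT OIR, members at an unadjusted p of 0.05 or less and the 3 with the largest changes at 1 FPKM or more, and other pathway genes are named with values only at that p. Alternatives were other pseudocounts, filters, scalings and limma settings, a GC correction, a replicate block and leaving out libraries.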

Additional observations from a re-analysis of the deposited data

Results flagged for a closer look

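In each group of 5 libraries, a value was marked when its gap to the nearest other value, divided by the group's range, was above 0.71 (Dixon's criterion). Of 186 groups of values examined, 15 held such a value, and chance marks about 1 in 20 groups. In WT OIR, replicate 4 was high for *Psma7* (79.88 FPKM), *Psmd8* (135.48), *Psmd9* (13.86) and *Psmd10* (8.85) and low for *Psmd3* (39.03), and replicate 3 was high for *Psmb9* (3.15). In *Atf6-/-* OIR, replicate 2 was high for *Psmb6* (122.63), *Psmc5* (78.59) and *Psme1* (49.48), and replicate 5 was low for *Psmc6* (57.2), *Psmd5* (21.17) and *Psmd10* (6.34). In PBS, replicate 5 was low for *Psma1* (52.75) and replicate 3 high for *Psmd8* (93.94), and in Ceapin-A7 replicate 4 was high for *Psmd7* (63.0). WT 4 and *Atf6-/-* 5 hold 8 of the 15 values, and these are the 2 libraries that stand apart from their genotype in the GC trend given in the report. Their part in that trend was not tested.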

How the results depend on the processing

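The count of called members was 0 in all 3 comparisons and in every fit that left out 1 library (0 to 0), and the exceptions were array weights (9 members in the knockout comparison, with 2769 genes in all, and 2 in the difference of the effects) and leaving out WT 4 and *Atf6-/-* 5 together (15 members). At an unadjusted p of 0.05 or less, the knockout count of 1 was 0 with a mean FPKM above 1, 19 with array weights (42.2%, against 36.6% of all genes), 27 without WT 4 and *Atf6-/-* 5 (60%, against 38.8%), 4 in a fit of all 20 libraries (8.89%, against 17.5%) and 0 to 12 when 1 library was left out, the highest being without WT 4 (12, 26.7% against 24%) and *Atf6-/-* 5 (11, 24.4% against 25.5%). The Ceapin-A7 count of 10 was 3 without PBS 4 and 5, 4 in a fit of all 20 libraries (8.89%, against 8.69%) and 6 to 16 when 1 library was left out. The count of 1 for the difference of the effects was 2 on FPKM as deposited, 0 on TPM, 0 without the mean trend, 6 with array weights and 0 to 5 when 1 library was left out. For the difference of the effects, shares over all genes are given for the main fit only. The members' median was 0.038 to 0.11 in the knockout and 0.070 to 0.11 with Ceapin-A7 when 1 library was left out, and 0.042 without PBS 4 and 5. With TPM, where the median of all genes moved to -0.037 with Ceapin-A7, 6 members were higher and 1 lower at the unadjusted limit, the median was 0.056, and 26.8% of all genes at that limit were higher, against 48.7% before. In the knockout comparison the 1 member at the limit was lower, not higher, on FPKM as deposited, TPM, quantile-normalized values, with a GC correction, without the low-value filter and without the mean trend. On FPKM as deposited and on TPM, 30.5% and 31.0% of such genes were higher in the knockout, against 54.4% before. The *Psmb9* to *Psmb6* ratio with Ceapin-A7 was -0.001 at a pseudocount of 1 and -0.173 to 0.242 when 1 library was left out, the *Psmb8* to *Psmb5* ratio -0.006 to 0.226, the 3 knockout ratios -0.555 to -0.255 (*Psmb8*), -0.445 to -0.168 (*Psmb9*) and -0.424 to -0.246 (*Psmb10*), and *Psmb9* itself -0.036 (without PBS 5) to 0.395. Same-numbered libraries were not paired: their correlations ran from -0.392 to 0.314 in OIR and from -0.375 to 0.455 at P30. With the replicate block, 0 members were called in each comparison. An unadjusted p of 0.05 or less was reached by 1 member in the knockout comparison (lower, 2.22%, against 12.5% of all genes). With Ceapin-A7 it was reached by 11 (10 higher, 1 lower, 24.4%, against 10.4%). The medians stayed at 0.063 and 0.095 and the ratios gave no call, the smallest p of a paired test being 0.0625. The causes of these shifts were not tested, and the 2-decimal FPKM values limit the lowest genes.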
